A study of Mus musculus with 6 samples.

Results

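Neutrophil granule genes were followed in bulk RNA-Seq of splenic Tregs that did or did not carry Zfp335. The 10 genes were taken by symbol from a table of 32285 rows of raw counts. They are the late granule genes Ngp, Camp, Ltf and Lcn2, the early granule genes Mpo, Elane, Prtn3 and Ctsg, and the alarmin genes S100a8 and S100a9. The set was chosen on the difference between WT and KO libraries, so all levels and fold changes of these 10 genes between WT and KO are given as a description without a test.

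The series holds 3 WT and 3 KO libraries of CD4+CD25+ cells sorted from the spleen of C57BL/6 mice. The labels name the KO genotype ERCre+Zfp335f/f and the controls wild-type littermates, and they give no age and no treatment. In the study's methods, the tamoxifen model compares ERCre mice with ERCre Zfp335fl/fl mice, and its animals were 6 weeks old, were injected 3 times with tamoxifen (100 μL per injection, 10 mg/mL) and were killed on day 7. By that account the controls also carry the Cre fused to a modified estrogen receptor and also received tamoxifen, and Cre activity is not stated to be limited to Tregs. Neither source says whether each library came from a separate animal, so SEs and p values measure the spread between these libraries, which may be technical.

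Neutrophils make their granules in an order. Promyelocytes in the bone marrow fill azurophil granules with myeloperoxidase and serine proteases, and later stages, under the transcription factor C/EBPε, fill specific granules with lactoferrin, cathelicidin and lipocalin. S100A8 and S100A9 form calprotectin, the most abundant protein complex of the neutrophil cytosol. Tregs are not a known source of azurophil or specific granule proteins. For S100a8 and S100a9, the study reports high expression in a Treg cluster that it calls dysfunctional. That cluster was larger in KO than in WT in its single-cell data, which come from another model (Foxp3Cre) and another age. In bulk RNA, fewer cells of a type and less RNA per cell cannot be told apart.

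The letters bound by C/EBP factors and by PU.1, both regulators of granulocyte genes, were looked for in the 250 bases before each RefSeq start site (GRCm38.p6). All 10 genes were matched. The C/EBP letters TTNNGNAA were present on either strand in 5 of the 10 windows, beside 36.8% of 32851 windows of all genes. They were present before 3 of the 4 late genes (Ngp, Ltf and Lcn2) and both S100 genes, and before 0 of the 4 early genes. The PU.1 letters GAGGAA were present in 7 of the 10 windows, beside 23.3% of all windows. All 4 early genes held them, as did Ltf, Lcn2 and S100a8. The RUNX letters TGTGGT were present in 2 windows, those of Ctsg and S100a9, beside 14% of all windows. No C/EBP match overlapped a PU.1 match in the 10 windows. The windows of Lcn2 and Prtn3 lie wholly inside the annotated gene, which begins further upstream than the RefSeq start site. The same holds for 1 of the 3 C/EBP matches of Ngp. A match describes the letters and does not show binding.

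The stretches before 3 late or S100 genes that hold the C/EBP letters and before 2 early genes that do not are shown 5′ to 3′ on the strand of the gene, with C/EBP and PU.1 letters in capitals. They lie at chr9:110419558-110419746 (plus strand), chr9:111019042-111019270 (plus), chr3:90695722-90695971 (minus), chr10:79886062-79886246 (plus) and chr14:56102575-56102824 (minus) and are cut where the annotated gene begins.
Ngp: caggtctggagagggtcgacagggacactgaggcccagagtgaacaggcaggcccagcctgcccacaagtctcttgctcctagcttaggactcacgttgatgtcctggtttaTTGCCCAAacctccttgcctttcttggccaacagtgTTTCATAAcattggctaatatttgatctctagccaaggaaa
Ltf: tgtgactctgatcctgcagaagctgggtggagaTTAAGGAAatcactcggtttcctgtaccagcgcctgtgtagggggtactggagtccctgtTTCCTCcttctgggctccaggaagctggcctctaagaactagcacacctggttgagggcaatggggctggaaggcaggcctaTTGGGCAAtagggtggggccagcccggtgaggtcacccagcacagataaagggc
S100a9: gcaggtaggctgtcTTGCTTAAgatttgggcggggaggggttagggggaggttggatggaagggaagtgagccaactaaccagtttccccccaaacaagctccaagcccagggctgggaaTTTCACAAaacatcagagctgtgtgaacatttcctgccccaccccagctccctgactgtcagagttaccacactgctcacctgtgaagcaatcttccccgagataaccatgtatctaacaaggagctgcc
Elane: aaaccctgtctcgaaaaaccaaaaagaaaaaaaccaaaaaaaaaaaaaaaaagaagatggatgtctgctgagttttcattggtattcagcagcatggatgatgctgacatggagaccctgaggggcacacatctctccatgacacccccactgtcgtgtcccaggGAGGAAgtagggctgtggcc
Ctsg: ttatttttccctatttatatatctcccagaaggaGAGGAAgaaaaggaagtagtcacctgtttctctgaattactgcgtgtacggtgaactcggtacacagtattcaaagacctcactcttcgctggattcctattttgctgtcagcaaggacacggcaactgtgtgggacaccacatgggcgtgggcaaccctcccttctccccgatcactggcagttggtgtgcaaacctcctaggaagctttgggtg
The stretches before Ngp, Ltf and S100a9 hold the C/EBP letters 2 times each, and those before Elane and Ctsg hold the PU.1 letters once each. Between WT and KO, the fold changes of these 5 genes are among those given gene by gene in the later paragraphs.

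Each library held between 133283969 and 209041812 counts. Zfp335 was at 115 to 124 CPM (counts scaled per library by its TMM-adjusted total) in WT and at 14.3 to 15.1 CPM in KO libraries, as labelled. Summed over 8 T and Treg genes, the level was 3899 to 3981 CPM in WT and 3977 to 4041 CPM in KO, with Foxp3 at 1136 CPM in WT and 1052 CPM in KO on average. Of the 8 genes, 7 were not called, while Ctla4 was higher, from 410 CPM in WT to 645 CPM in KO (edgeR adjusted p = 9.56e-09). Xist, which is expressed in female cells, averaged 0.272 CPM in WT and 135 CPM in KO, so the genotype and the sex of the animals cannot be told apart. Genes of non-leukocyte tissue set WT1 and WT2 apart from the other libraries. Their sum over 10 genes was 0.764 and 0.719 CPM in WT1 and WT2, but 14.6 CPM in WT3 and 16.4 to 27.6 CPM in KO, mostly from Alb, the liver's serum albumin gene. The median log2 fold change of the granule genes was -3.58 without WT3. That fit keeps only the WT libraries low in these tissue genes, so the tissue genes and the genotype cannot be told apart in it. Of 17307 genes tested by edgeR, 4.37% were lower and 2.58% were higher in KO at 1.5-fold or more with p under 0.05 and adjusted p under 0.1.

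Each of the 10 granule genes had a lower mean level in KO Tregs. Their summed level was 22.4, 29.9 and 26.8 CPM in WT1, WT2 and WT3 and 1.99, 2.78 and 1.44 CPM in KO1, KO2 and KO3. The WT libraries averaged 26.4 ± 3.78 CPM and the KO libraries 2.07 ± 0.673 CPM (SD, n = 3), a ratio of 12.8. Every WT library lay above every KO library for 9 of the 10 genes, the exception being Ctsg; over all genes tested, 19.1% had every KO library below every WT library. The median log2 fold change of the 10 genes was -3.60, whereas that of all genes tested was -0.0042. All 10 met the cutoffs for lower expression, beside 4.37% of all genes and beside 10.1% of the 5982 genes whose WT mean lay within the range of the 10 genes; since the same comparison chose the genes, nothing is read from this count. The call of Ctsg was lost without WT2, KO1 or KO3, leaving 9. All 10 exceeded the low-count filter's 0.0542 CPM in all 3 WT libraries, and 7 did so in all 3 KO libraries.

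**Figure D1:**
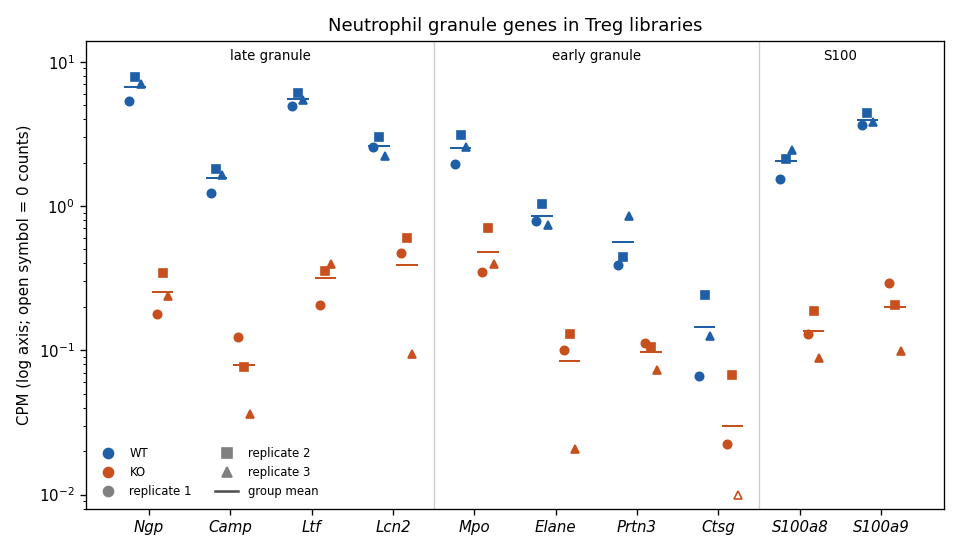
CPM of the 10 granule genes in each of the 6 libraries on a log axis, with blue for WT, orange for KO, symbols for replicates and horizontal lines for group means. WT and KO libraries are apart for every gene except Ctsg, which had 0 counts in KO3 (open symbol, drawn at the lower end of the axis).

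Ngp, which encodes neutrophilic granule protein of the specific granules, had the largest fold change of the 10 genes. Its level was 5.35, 7.79 and 6.97 CPM in WT1, WT2 and WT3 and 0.180, 0.342 and 0.239 CPM in KO1, KO2 and KO3. The lowest WT library was far above the highest KO library, and the log2 fold change of KO over WT was -4.70 ± 0.24 (SE), a ratio of means of 26.4. This was rank 19 of 17307 genes ordered from the lowest fold change. The gene lies at chr9:110419747-110423012 on the plus strand (GRCm38).

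Camp encodes cathelicidin, an antimicrobial peptide precursor stored in specific granules. It was at 1.23, 1.80 and 1.64 CPM in the WT libraries and at 0.123, 0.0772 and 0.0364 CPM in KO1, KO2 and KO3. All KO values lay well below the WT values, with KO3 at 7 counts the lowest, and the log2 fold change was -4.31 ± 0.35. Camp (chr9:109847379-109849617, minus strand) lies 570129 bases from Ngp.

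Ltf encodes lactoferrin, the iron-binding protein of specific granules, and lies on the same chromosome (chr9:111019271-111042767, plus strand), 596258 bases beyond Ngp. It was at 4.93, 6.05 and 5.44 CPM in WT1, WT2 and WT3 and at 0.208, 0.352 and 0.395 CPM in KO1, KO2 and KO3. The groups were apart, and the log2 fold change was -4.09 ± 0.19, the smallest SE of the 10 genes. Ltf was the one gene with its highest KO value in KO3.

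Lcn2 encodes lipocalin 2, which sequesters bacterial siderophores. It was at 2.55, 2.997 and 2.22 CPM in the WT libraries and at 0.471, 0.603 and 0.0935 CPM in KO1, KO2 and KO3. The groups did not overlap, but KO3 was far below the other KO libraries, by a ratio of 6.45 between the highest and the lowest. The log2 fold change of -2.74 ± 0.31 was the weakest of the late genes and lay within the range of the early genes. Lcn2 is located at chr2:32384633-32388252 on the minus strand.

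Among the early genes, Mpo encodes myeloperoxidase, which makes hypochlorous acid. It was at 1.95, 3.10 and 2.55 CPM in WT1, WT2 and WT3 and at 0.348, 0.704 and 0.395 CPM in KO1, KO2 and KO3. The second replicate was the highest in both groups, the groups were apart, and the log2 fold change was -2.37 ± 0.26. Mpo (chr11:87793581-87804413, plus strand) overlaps Gm11505, which had 0 counts in all libraries, and 9.46% of its 50-base stretches occur in other genes.

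Elane encodes neutrophil elastase, a serine protease of azurophil granules. It was at 0.786, 1.02 and 0.743 CPM in the WT libraries and at 0.101, 0.130 and 0.0208 CPM in KO1, KO2 and KO3. These KO levels stand for 18, 27 and 4 counts. The groups were apart and the log2 fold change of -3.34 ± 0.40 was the largest of the early genes.

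Prtn3, which encodes proteinase 3, lies 3072 bases from Elane. Prtn3 is at chr10:79874476-79883174 and Elane at chr10:79886247-79888215, both on the plus strand. Prtn3 was at 0.390, 0.441 and 0.855 CPM in WT1, WT2 and WT3 and at 0.112, 0.106 and 0.0727 CPM in KO1, KO2 and KO3. WT3 was the highest library and the groups were apart, with a log2 fold change of -2.45 ± 0.46. Plppr3, on the opposite strand, overlaps Prtn3 and holds 6.45% of its 50-base stretches. Plppr3 averaged 40.5 CPM in WT and 59.3 CPM in KO, and whether its reads entered the Prtn3 counts was not tested, as the sources used here do not say whether reads were counted by strand.

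Ctsg encodes cathepsin G (chr14:56099881-56102574, minus strand) and had the fewest counts of the 10 genes. There were 12, 46 and 17 counts in WT1, WT2 and WT3 and 4, 14 and 0 counts in KO1, KO2 and KO3. KO2 exceeded WT1, at 0.0675 against 0.0660 CPM, so the groups overlapped. The log2 fold change was -2.22 ± 0.85, and without KO2 it was -3.69.

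S100a8 and S100a9 lie 22596 bases apart, at chr3:90668978-90670035 (plus strand) and chr3:90692632-90695721 (minus strand). S100a8 was at 1.54, 2.12 and 2.44 CPM in WT1, WT2 and WT3 and at 0.129, 0.188 and 0.0883 CPM in KO1, KO2 and KO3. S100a9 was at 3.62, 4.38 and 3.81 CPM in the WT libraries and at 0.292, 0.207 and 0.0987 CPM in KO1, KO2 and KO3. For both subunits of calprotectin the groups were apart and KO3 was the lowest library. The log2 fold changes were -3.87 ± 0.31 for S100a8 and -4.32 ± 0.23 for S100a9.

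**Figure D2:**
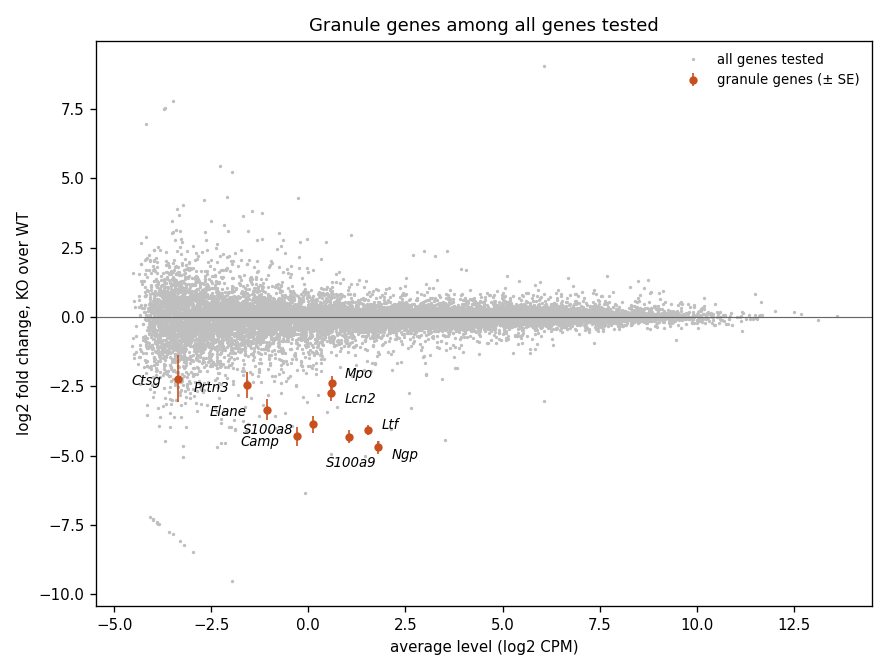
Log2 fold change of KO over WT against the average level in log2 CPM for the 17307 genes tested (grey) and the 10 granule genes (orange, with SE). The granule genes lie between -4.70 and -2.22, below most genes of like level.

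The order of the levels per exon length was read in RPKM, the CPM divided by the exon length in kilobases. In WT, S100a9 was highest at 7.54 ± 0.763 RPKM (SD, n = 3). It was followed by Ngp at 5.48 ± 1.02 RPKM, S100a8 at 2.93 ± 0.653 RPKM, Camp at 2.05 ± 0.385 RPKM and Ltf at 1.59 ± 0.163 RPKM. Lcn2 averaged 0.987, Elane 0.865, Mpo 0.740, Prtn3 0.324 and Ctsg 0.140 RPKM, so the early genes took the last 4 places. Of the 9 pairs of neighbours in this order, 4 did not overlap between libraries, namely S100a9 over Ngp, Ngp over S100a8, Ltf over Lcn2 and Mpo over Prtn3. In KO, S100a9 at 0.382 RPKM, Ngp at 0.208 RPKM and S100a8 at 0.195 RPKM had the 3 highest means, and the means of Lcn2 at 0.148 RPKM and Mpo at 0.141 RPKM stood above those of Camp at 0.104 RPKM and Ltf at 0.0922 RPKM, but every pair of neighbours overlapped between KO libraries.

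Late granule genes differed more between WT and KO than early ones. The summed level of the 4 late genes was 14.1, 18.6 and 16.3 CPM in WT1, WT2 and WT3 and 0.981, 1.37 and 0.763 CPM in KO1, KO2 and KO3, a ratio of means of 15.7. The 4 early genes summed to 3.19, 4.81 and 4.27 CPM in the WT libraries and to 0.583, 1.01 and 0.488 CPM in the KO libraries, a ratio of 5.90. The ratio of late over early was 4.40, 3.87 and 3.81 in WT1, WT2 and WT3 and 1.68, 1.36 and 1.56 in KO1, KO2 and KO3. The groups were apart, at 4.03 ± 0.325 in WT and 1.54 ± 0.161 in KO (SD, n = 3). The early genes made up 15.4% ± 1.02 of the summed level of the 10 genes in WT and 33.2% ± 3.51 in KO.

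The mean log2 fold change was -2.60 over the early genes, -3.96 over the late genes and -4.09 over the S100 genes. The difference of late minus early was -1.36, and it was -1.24 without Ctsg and -1.18 without Mpo and Prtn3. The separation was not complete, as Elane at -3.34 lay below Lcn2 at -2.74. For the late and the early gene with the highest CPM in WT, the ratio of Ngp over Mpo was 2.74, 2.51 and 2.74 in WT1, WT2 and WT3 and 0.516, 0.486 and 0.605 in KO1, KO2 and KO3. The other late genes were uneven against Mpo. Ltf over Mpo was 2.53, 1.95 and 2.13 in WT and 0.597, 0.50 and 1.0 in KO, and Camp over Mpo was 0.631, 0.579 and 0.644 in WT and 0.355, 0.110 and 0.092 in KO, both apart between groups. Lcn2 over Mpo, at 1.30, 0.966 and 0.872 in WT and 1.36, 0.856 and 0.237 in KO, overlapped between groups. The ratio of S100a9 over S100a8 was 2.34, 2.07 and 1.56 in WT and 2.26, 1.10 and 1.12 in KO, and these ratios overlapped between groups.

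**Figure D3:**
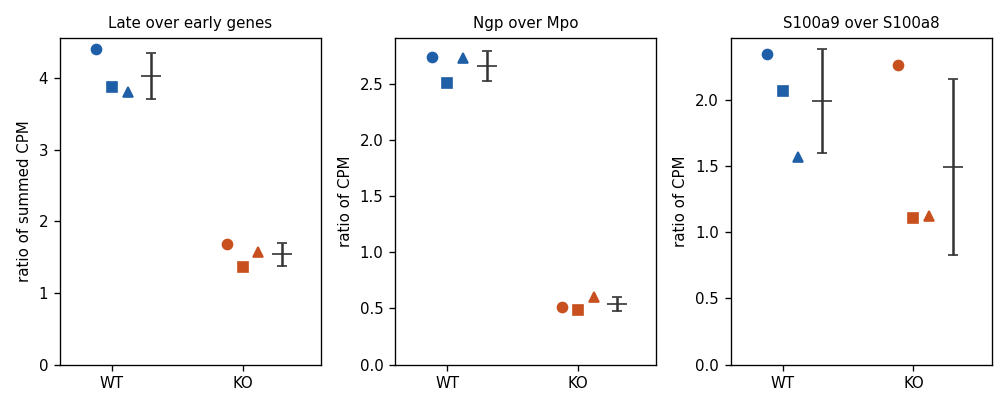
Ratios of CPM in each library for the 4 late over the 4 early genes (left), Ngp over Mpo (middle) and S100a9 over S100a8 (right), each on a linear axis from 0 with the group mean and SD beside the points. The first 2 ratios are apart between WT and KO, at 4.03 against 1.54 and at 2.66 against 0.536, and the third overlaps.

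Within groups the genes tended to share their high and low libraries. WT2 was the highest WT library for 8 of the 10 genes and WT1 the lowest for 8. KO3 was the lowest KO library for 7 genes, and KO2 the highest for 6. The ratio of the highest to the lowest WT library ranged from 1.21 for S100a9 to 3.66 for Ctsg. In KO it reached 6.27 for Elane and 6.45 for Lcn2, both with KO3 lowest, apart from Ctsg, which has no such ratio as KO3 was at 0.

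A further 44 neutrophil genes were read in the same fit, of which 39 were tested. KO was lower for 19, higher for 1 and not called for 19, with a median log2 fold change of -0.68. Of all genes tested, 4.37% were lower and 2.58% higher, which also stands beside the counts of each list below. As the lists were chosen with earlier results of these data known, these counts are given as a description. The changes were uneven across groups of genes. Of the genes named below, Fcnb, Mmp8, Retnlg, Cxcr2 and Cebpe exceeded the filter's 0.0542 CPM in all 3 WT libraries but not in all 3 KO libraries. Their p values are therefore given as a description. Some genes of these lists stood above the granule genes, whose highest library value was 7.79 CPM. Among them were Cyba, not called at 188 CPM in WT, and Lyz2, lower from 19.7 CPM. The part of other cells, Tregs included, in such values was not tested.

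The late granule list had 5 of 7 tested genes lower, with a median log2 fold change of -2.04. Fcnb, which encodes ficolin B, had 18, 46 and 31 counts in WT1, WT2 and WT3 and 0 in each KO library, and was at least 12.2-fold lower at a floor of 3 counts per library (edgeR adjusted p = 0.00342). Chil3, which encodes a chitinase-like lectin, fell from 3.02 to 0.324 CPM, a log2 fold change of -3.24 ± 0.25 (edgeR adjusted p = 8.21e-07). Mmp8, which encodes neutrophil collagenase, changed by -2.91 ± 0.60 on the log2 scale (edgeR adjusted p = 0.00319). Cd177, which encodes a surface partner of proteinase 3, changed by -2.04 ± 0.23 on the log2 scale (edgeR adjusted p = 2.77e-05). Lyz2, the lysozyme gene shared with macrophages and named after its values were seen, was the fifth, at 19.7 CPM in WT and 7.36 CPM in KO. Pglyrp1, a peptidoglycan recognition protein gene, was not called at a log2 fold change of -0.22 (edgeR adjusted p = 0.00606). Hp, the haptoglobin gene, was at 1.66 CPM in WT and 1.57 CPM in KO and was not called (edgeR adjusted p = 0.991).

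The early granule list gave little. Of its 3 genes only Prss57, which encodes a serine protease of azurophil granules, was tested, at 0.139 CPM in WT and 0.124 CPM in KO. Its log2 fold change of -0.21 ± 0.49 was not called (edgeR adjusted p = 0.811).

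Genes of gelatinase granules and mature neutrophils were lower for 9 and higher for 1 of 13 tested genes, with a median log2 fold change of -1.72. Retnlg, a resistin-like gene of neutrophils, had 17, 71 and 26 counts in WT and 4, 8 and 8 counts in KO, with a log2 fold change of -2.68 ± 0.70 (edgeR adjusted p = 0.0126). Clec4d and Trem1, receptors of myeloid cells, were lower by the fit at -2.65 ± 0.78 (edgeR adjusted p = 0.0235) and -2.43 ± 0.81 (edgeR adjusted p = 0.0432), although their libraries overlapped between groups. Cxcr2, the chemokine receptor that guides neutrophils out of the marrow, had 34, 22 and 17 counts in WT and 17, 0 and 0 in KO, at -2.27 ± 0.94 (edgeR adjusted p = 0.0981), and kept its call in 1 of 6 fits that left out a library. Lrg1, an acute-phase glycoprotein gene, and Fpr1, a formyl peptide receptor gene, were not called, at 0.09 and 0.85 on the log2 scale. The gene that rose was Il1r2, the decoy receptor for interleukin 1, named after its values were seen, from 14.7 to 23.7 CPM (edgeR adjusted p = 1.15e-06). Of the lower genes, the more abundant Mmp25 and Mmp9 were also named after their values were seen. Mmp25 fell from 20.1 to 9.20 CPM (edgeR adjusted p = 2.97e-07) and Mmp9 from 10.3 to 4.88 CPM (edgeR adjusted p = 6.33e-07). Both kept their calls in all 6 fits that left out a library. Hp and Lrg1 are also made by liver, and the part of the liver genes that set WT1 and WT2 apart from the other libraries in these values was not tested.

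Of the 5 genes for subunits of the NADPH oxidase, 0 were called by edgeR, DESeq2 or limma-voom, while 3 had an unadjusted p under 0.05 in edgeR. Cyba, the p22phox gene, was at 188 CPM in WT and 178 CPM in KO, and the median log2 fold change of the 5 was -0.11. Among transcription factors of granulopoiesis, 3 of 5 were lower. Cebpe, which encodes C/EBPε of the late granule program, had 37, 24 and 13 counts in WT1, WT2 and WT3 and 0, 0 and 5 counts in KO1, KO2 and KO3, with a log2 fold change of -3.97 ± 1.02 (edgeR adjusted p = 0.00942). Spi1, which encodes PU.1, fell from 2.22 to 1.19 CPM (edgeR adjusted p = 0.001), and Cebpd fell from 1.51 to 0.963 CPM (edgeR adjusted p = 0.011). Gfi1, a repressor also active in T cells, was at 47.2 CPM in WT and 64.3 CPM in KO, a log2 fold change of 0.44 that stayed under the 1.5-fold cutoff (edgeR adjusted p = 1.86e-06). Cebpa was at 7.81 CPM in WT and 8.27 CPM in KO and was not called.

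Genes that activate, inhibit or receive granule proteins were lower for 2 of 8. Serpinb1a, the inhibitor of elastase, cathepsin G and proteinase 3, fell from 4.20 to 2.26 CPM (edgeR adjusted p = 0.000846). Slpi, another inhibitor of elastase, fell from 1.42 to 0.892 CPM (edgeR adjusted p = 0.034). Ctsc, which encodes the peptidase that activates the granule proteases, was at 59.6 CPM in WT and 53.0 CPM in KO and was not called. Ager and Tlr4, receptors of S100A8 and S100A9, were not called at 0.06 and -0.46 on the log2 scale, and Fpr2, a receptor of the human cathelicidin peptide, was not called at -0.97.

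**Figure D4:**
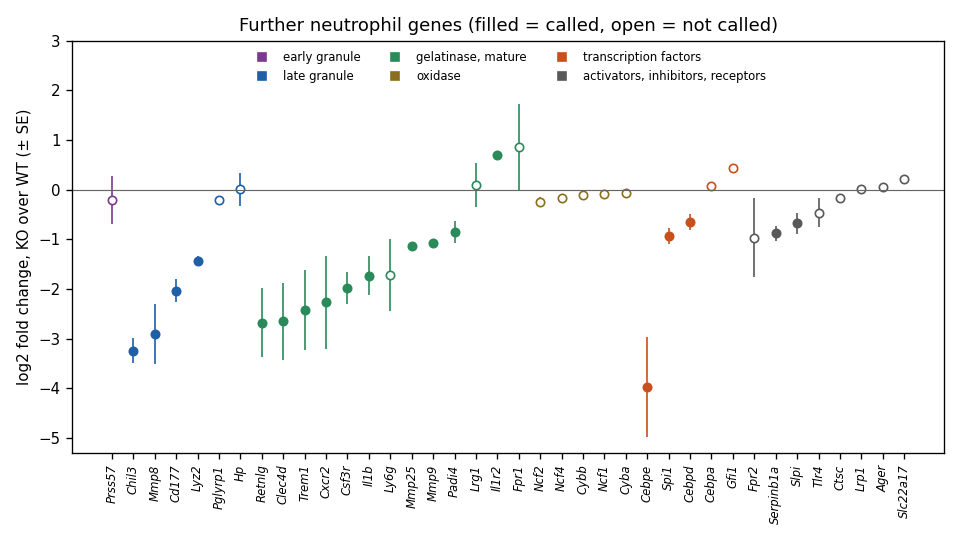
Log2 fold change of KO over WT with SE for the further neutrophil genes tested, coloured by list, with filled symbols for called and open symbols for genes not called; Fcnb, at 0 in all KO libraries, is left out. The late granule and gelatinase lists hold most of the lower genes, and the 5 oxidase genes lie between -0.25 and -0.07.

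Markers of some other cell types were also lower in KO, unevenly across the lists. Of 63 markers of other cell types 50 were tested, and 26 were lower and 2 higher in KO, with a median log2 fold change of -0.88. Of all genes tested, 4.37% were lower and 2.58% higher. As the lists were chosen with earlier results of these data known, these counts are given as a description. Red cell genes summed to 39.5 to 46.3 CPM in WT and to 2.67 to 3.03 CPM in KO, a ratio of 15.1, with 8 of 10 lower. B cell genes summed to 63.6 to 69.6 CPM in WT and to 29.5 to 31.0 CPM in KO, a ratio of 2.22, with 7 of 8 lower. All 4 dendritic cell genes, 2 of 3 plasma cell genes, and 2 of 4 basophil and mast cell genes were lower as well, although Xcr1 and Clec9a of the dendritic genes lost their calls in 3 of 6 fits that left out a library and Prss34 of the basophil genes in all but 2. Monocyte and macrophage genes ranged from 96.2 to 106 CPM in WT and from 78.5 to 81.4 CPM in KO, with 2 lower and 2 higher of 10. Among CD8 T and NK cell genes 0 of 4 were called by edgeR, DESeq2 or limma-voom, with 0 at an unadjusted p under 0.05 in edgeR. The same tools called 0 of 3 stem and progenitor genes, of which 1 had an unadjusted p under 0.05 in edgeR. The whole list of 5 stem and progenitor genes summed to 8.10 to 8.96 CPM in WT and 9.17 to 10.2 CPM in KO. The 6 platelet and megakaryocyte genes summed to 3.56 to 4.235 CPM in WT and 4.61 to 5.09 CPM in KO. Only 1 of them was tested, and it was not called. The part of these other cells in the values of the granule genes was not tested.

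**Figure D5:**
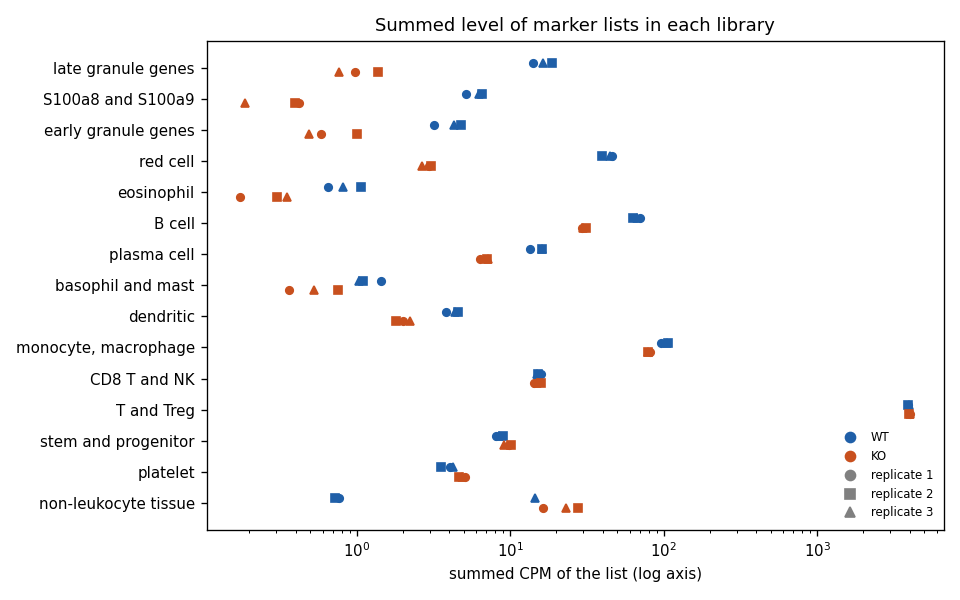
Summed CPM of the granule genes and of marker lists in each library on a log axis, with blue for WT, orange for KO and symbols for replicates. Granule and red cell lists show ratios of WT over KO between 5.90 and 17.9, the sum of the T and Treg list differs little, and the non-leukocyte list is low in WT1 and WT2 alone.

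The 5 genes whose pattern over the 6 libraries was most like that of the granule genes included 3 globin genes. Likeness was the root mean square difference in centred log2 CPM to the mean of the 7 granule genes with at least 1 CPM in WT, over 12083 genes. Hbb-bt was nearest at 0.287, followed by the immunoglobulin segment Ighv1-18 at 0.387, Hba-a1 at 0.423 and Hbb-bs at 0.452. Zfp335 itself was the fifth at 0.515. This likeness rests mainly on the step between WT and KO, and within WT the order differed: Hbb-bt was highest in WT1 at 9.43 CPM, where 8 of the 10 granule genes were lowest.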

How the data were processed

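Bulk RNA-Seq of 3 WT and 3 KO libraries was analyzed, with groups and replicate numbers from the sample labels. The libraries were made from 200 ng of total RNA with a TruSeq kit. As deposited, the values are raw counts for each gene symbol, and the processing notes name HISAT2, DESeq2 and mm10; the counting tool and strand setting are not given in the sources used here. Values of 1 and 2 (620 and 1045 entries) were rarer than values of 4 (2579), and how many independent fragments they stand for is unknown. Of 32285 rows, 40 repeat a symbol. The members and gene lists were chosen with earlier results of these data known.

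Counts were fitted in R 4.3.3 with the quasi-likelihood test of edgeR 4.0.16 (TMM scaling, filterByExpr, robust) on 17307 genes with Benjamini-Hochberg adjustment. Genes were called at 1.5-fold, p under 0.05 and adjusted p under 0.1, after the study's supplemental methods. CPM used TMM-scaled library sizes, and log2 CPM a prior count of 2. RPKM used exon lengths of the GENCODE annotation of GRCm38. From each gene list, up to 4 tested genes with the largest log2 fold change and up to 2 abundant genes that were not called were named. Alternatives were other scalings and filters, edgeR's legacy method, DESeq2 1.42.0, limma-voom 3.58.1, the replicate number as a block and leaving out each library. The fit was tested on simulated data.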

Additional observations from a re-analysis of the deposited data

How the results depend on the processing

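Counts in KO were low for the granule genes, at 0 to 146 per library, which limits the precision of their fold changes. All 10 kept a negative log2 fold change under each alternative in which they were tested, and their median stayed between -4.01 and -3.26. The call of Ctsg was lost with edgeR's legacy method, at adjusted p under 0.05 with no fold cutoff and without WT2, KO1 or KO3, and no other granule gene that was tested lost its call. With a filter of 1 CPM on the mean, 6 of the 10 were tested. Single fold changes moved by more than the replicate spread in 1 of 146 values, that of Ctsg without KO2 (-3.69). Late minus early ranged from -1.53 to -0.97 when one library was left out, with -0.97 without KO2. The number of genes called was 1203, against 4170 at adjusted p under 0.05 with no fold cutoff and 533 with the 1 CPM filter; the share that was lower was 62.9% in the first case and 50.1% with no fold cutoff. With the 1 CPM filter, fewer genes were tested, and 8 further neutrophil genes (19 otherwise) and 14 markers of other cell types (26 otherwise) were lower. Leaving out one library gave 984 to 1423 genes called, 16 to 19 further neutrophil genes lower and 24 to 27 markers lower. Of the named calls of further neutrophil genes, those of Retnlg and Clec4d were lost without WT2, Cebpd without KO2, Slpi without WT1 or KO3, Trem1 without WT1, KO1 or KO2, and Cxcr2 without any library but KO1; none changed sign. The samples share only a number: same-numbered libraries correlated by 0.028, 0.0082 and 0.033 in their deviations from the group means, and with the replicate block 1163 genes were called, late minus early was -1.36, the granule median was -3.61 and 18 further neutrophil genes and 26 markers were lower.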

Other observations

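Granule genes of eosinophils, a separate granulocyte lineage, were also seen in the libraries. Prg2, which encodes the major basic protein of eosinophil granules, had 78, 111 and 65 counts in WT1, WT2 and WT3 and 0, 0 and 17 counts in KO1, KO2 and KO3. The fit gave -4.06 ± 0.67 on the log2 scale (edgeR adjusted p = 0.000439), and Prg2 was lower in all 3 KO libraries than in any WT library. Prg2 exceeded the low-count filter's 0.0542 CPM in all 3 WT libraries but not in all 3 KO libraries. Its p value is therefore given as a description. Epx, the eosinophil peroxidase gene, had 15, 47 and 3 counts in WT and 3, 0 and 0 counts in KO and was below the filter. Siglecf, a surface receptor of eosinophils, had 14, 18 and 7 counts in WT and 7, 19 and 25 counts in KO and was not called (edgeR adjusted p = 0.868). Ear2, of the same list, had 11, 28 and 30 counts in WT and 21, 44 and 26 counts in KO. It was not called at 0.21 on the log2 scale (edgeR adjusted p = 0.827). Ear1 had 4 counts in WT3 alone, and Ear6 had 0 counts in all libraries. Of the 3 eosinophil genes tested, 1 was lower, and their median log2 fold change was 0.20.

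Liver genes followed another order of the libraries. Alb had 75, 113 and 1639 counts in WT1, WT2 and WT3 and 2489, 5159 and 3745 counts in KO1, KO2 and KO3. Ttr had 0, 0 and 64 counts in WT and 73, 130 and 99 counts in KO.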
